A study of Mus musculus with 6 samples.

Results

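The genes described here are 38 mouse chaperone, cochaperone and stress sensor genes, taken by name from a table of read counts for 55487 genes. They were sorted into 14 cytosolic genes of the heat shock system, including the transcription factor Hsf1, 21 genes of the endoplasmic reticulum (ER) and its stress response, and 3 mitochondrial chaperone genes. Each was found in the table, and all 38 passed the filter on low counts that left 15748 genes for testing. The libraries came from D6AdP, a mouse embryonic stem (ES) cell line whose genotype is written DDX6-AID-mCherry on both alleles, DCP1a-EGFP/+ and OsTIR1-FLAG Tg. DDX6, a DEAD-box helicase, holds mRNAs back from translation and speeds their decay, AID is the auxin-inducible degron, and OsTIR1 is the plant protein that sends degron-tagged proteins for destruction when an auxin is present. All groups carried the tags and the transgene, and all were grown with leukemia inhibiting factor, PD0325901 (a MEK inhibitor) and CHIR99021 (a GSK3 inhibitor) on fibroblast feeder cells treated with mitomycin-C. The groups differed in the time with 500 nM of the auxin analog 5-Ph-IAA, which was 0, 3 or 6 h, with 2 libraries each. Cells without the degron, or cells kept for 3 or 6 h without the analog, were not analysed here, so DDX6 loss, the analog and time in culture cannot be told apart. Whether the libraries of a time came from separate cultures is not stated in the labels, so a p-value here reflects library-to-library spread that could be purely technical.

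Chaperones bind unfolded proteins and use ATP-driven cycles to help them fold. In the cytosol, HSP70 proteins work with J-domain partners and nucleotide exchange factors and hand clients to HSP90, and HSF1 drives transcription of these genes after heat or proteotoxic stress. In the ER, BiP (Hspa5), lectin chaperones and disulfide isomerases fold secretory proteins, and the sensors IRE1 (Ern1), ATF6 and PERK raise their expression when unfolded proteins gather, partly through XBP1. Mitochondria hold their own HSP70 (Hspa9) and the HSP60 and HSP10 chaperonin (Hspd1 and Hspe1).

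Both programs act through short promoter sequences, which are shown because they come from the genome and not from the counts. RefSeq promoters on GRCm38.p6, running from 250 bases before to 50 bases after each gene start, were found for 30 of the 38 genes, and not for Hspa8, Hsp90aa1, Hsp90ab1, Hsf1, Hyou1, Atf6, Manf and Hspa9. The ER stress response element was searched as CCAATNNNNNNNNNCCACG on both strands. It was present in 8 of the 18 ER genes with a promoter entry (44.4%), in none of the cytosolic and mitochondrial genes with an entry, and in 0.137% of the 27025 genes with an entry. The matches follow, 5′ to 3′ along the motif, with the fixed letters in capitals and the GRCm38.p6 position and strand in the name.
Hspa5, chr2:34772025-34772043, plus strand: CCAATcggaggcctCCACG
Hsp90b1, upstream match, chr10:86705638-86705656, minus strand: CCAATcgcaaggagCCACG
Hsp90b1, downstream match, chr10:86705533-86705551, plus strand: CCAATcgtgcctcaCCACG
Calr, chr8:84847075-84847093, plus strand: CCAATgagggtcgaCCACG
Canx, chr11:50325800-50325818, minus strand: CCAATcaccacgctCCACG
Creld2, chr15:88819520-88819538, minus strand: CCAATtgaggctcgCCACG
Dnajc3, chr14:118937827-118937845, plus strand: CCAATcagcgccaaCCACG
Pdia6, chr12:17266491-17266509, plus strand: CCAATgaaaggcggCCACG
Syvn1, chr19:6046532-6046550, plus strand: CCAATcggcggtagCCACG

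The related element ERSE-II, searched as ATTGGNCCACG on both strands, was present in Herpud1 and Dnajb11 and in 0.0444% of all genes with an entry. It shares its CCACG end with the longer element, and neither of these genes held a match to that longer form.
Herpud1, chr8:94386377-94386387, plus strand: ATTGGgCCACG
Dnajb11, chr16:22857852-22857862, plus strand: ATTGGcCCACG

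A heat shock element of 3 alternating units, searched as GAANNTTCNNGAA on both strands, was present in 4 of the 30 genes (13.3%) and in 0.662% of all genes with an entry. These were Hsph1, Chordc1 and the neighbours Hspd1 and Hspe1, which lie head to head and share one stretch. The promoter entries of Hspa1a, Hspa1b, Dnajb1 and Bag3 held no match to this exact spelling. Variant spellings and sequence outside the window were not searched, so a missing match does not mean that a gene lacks the element. Chordc1 held 3 overlapping matches and the shared stretch held a pair of overlapping matches, and capitals mark the GAA and TTC units.
Hsph1, chr5:149636288-149636300, plus strand: GAActTTCcaGAA
Chordc1, first match, chr9:18292263-18292275, plus strand: GAAcgTTCggGAA
Chordc1, second match, chr9:18292268-18292280, minus strand: GAAttTTCccGAA
Chordc1, last match, chr9:18292273-18292285, plus strand: GAAaaTTCctGAA
Hspd1 and Hspe1, first match, chr1:55088064-55088076, plus strand: GAAccTTCcgGAA
Hspd1 and Hspe1, second match, chr1:55088059-55088071, minus strand: GAAggTTCtaGAA

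The libraries held 16357142 to 21846959 counts. Values are in CPM, which relates counts to the library total after TMM scaling, and log2 fold changes carry a standard error (SE) from edgeR's quasi-likelihood fit of all 6 libraries. A gene was called at a Benjamini-Hochberg adjusted p under 0.05 over all 15748 genes, two-sided, and the adjusted p-values below are from that test. The comparisons of 3 h and of 6 h with 0 h share the 0 h libraries. Of 30 fibroblast markers none was at 0 counts in any library, and their summed level was 30111 to 33046 CPM at 0 h, 28516 to 29077 at 3 h and 28946 to 32352 at 6 h, so feeder RNA was present in every library. The summed level of 10 ES cell markers was 4519 to 4720 CPM at 0 h, 4849 to 4911 at 3 h and 4443 to 4628 at 6 h. In bulk RNA of this kind, fewer cells of a type and less RNA per cell cannot be told apart.

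Before the analog, the cytosolic genes together took the most counts of the 3 classes, with 1.27% and 1.29% of all counts in the 0 h libraries, against 0.484% and 0.479% for the 21 ER genes and 0.213% and 0.211% for the 3 mitochondrial genes. Per length of exon, the highest mean level at 0 h was that of Hsp90ab1, the constitutive HSP90, at 1868 CPM per kb, followed by Hsp90aa1, its inducible form, at 810 CPM per kb and the constitutive HSP70 Hspa8 at 435 CPM per kb. The mitochondrial HSP60 gene Hspd1 came next at 383 CPM per kb. The lectin chaperone Calr led the ER genes at 272 CPM per kb, with the disulfide isomerase Pdia3 at 197 and the ER HSP90 Hsp90b1 at 185 CPM per kb. At the other end stood the heat-inducible HSP70 genes, Hspa1b at 2.85 and Hspa1a at 0.624 CPM per kb, and the ER sensor Ern1 at 2.82 CPM per kb.

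**Figure D1:**
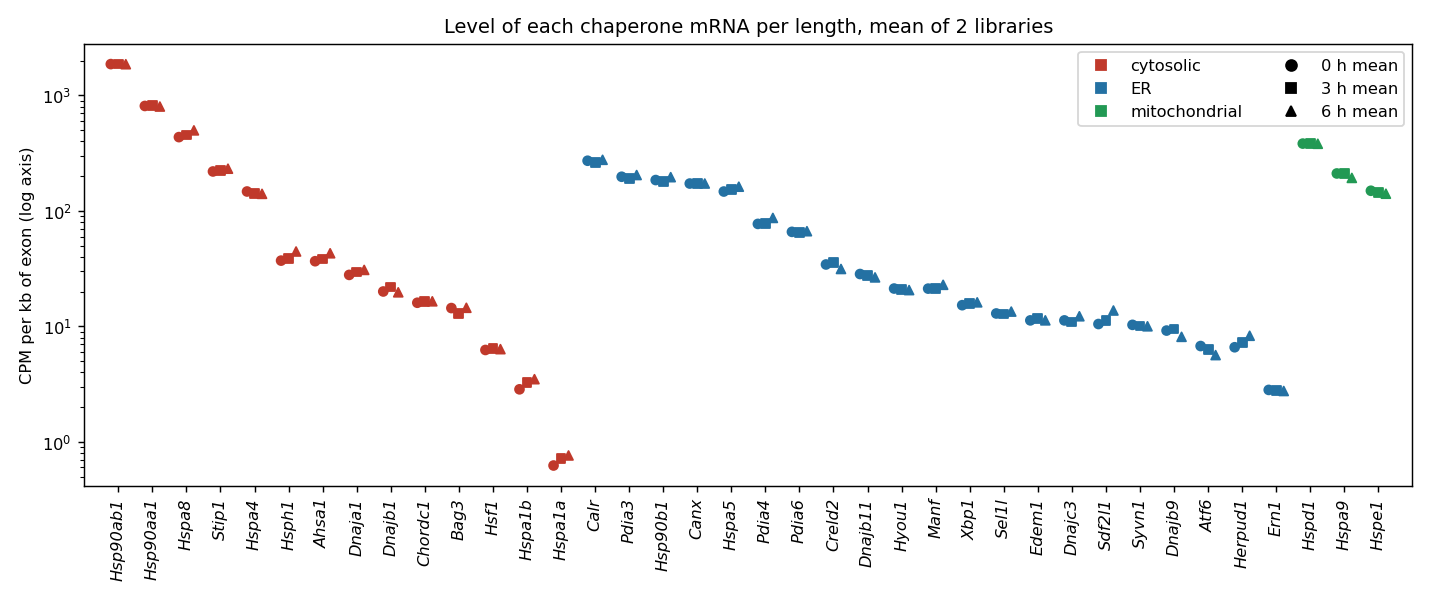
Mean level of each of the 38 mRNAs at 0, 3 and 6 h (2 libraries each), in CPM per kb of exon on a log axis, ordered within each class by the 0 h level. The order spans from Hsp90ab1 at 1868 to Hspa1a at 0.624 CPM per kb, and the 3 times lie close together for each gene.

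At 3 h none of the 38 genes was called changed. Of all genes tested 0.184% were called in this comparison, 29 of 15748. At an unadjusted p under 0.05 there were 4 of the 38, against 1702 of all 15748 genes. These 4 were the cytosolic genes Hspa8, Dnaja1, Dnajb1 and Bag3. DESeq2 called none of the 38 and had none at an unadjusted p under 0.05. Fold changes were above 0 for 12 of the 14 cytosolic, 9 of the 21 ER and 1 of the 3 mitochondrial genes, and for 7812 of all 15748 genes. The median log2 fold change was 0.05 for the cytosolic genes, -0.01 for the ER genes, -0.0056 for the mitochondrial genes and -9.33e-04 for all genes tested. All 30 feeder markers had fold changes below 0 at this time, with a median of -0.14 on the log2 scale and none called, and their part in the values of the 38 genes was not tested. Neither Dnajb1, which encodes an HSP40 partner of HSP70 that responds to heat shock (log2 fold change 0.13 ± 0.06, adjusted p = 0.437), nor Bag3, an HSP70 nucleotide exchange factor (-0.15 ± 0.06, adjusted p = 0.375), passed the test.

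By 6 h, 8 of the 38 genes were called higher and 2 lower. The background in this comparison was 22.2% of all genes called, 9.92% higher (1562 genes) and 12.3% lower (1941 genes). Those that rose were the cytosolic Hsph1, Ahsa1, Hspa8 and Dnaja1 and the ER genes Sdf2l1, Herpud1, Pdia4 and Hspa5, and those that fell were the ER sensor gene Atf6 and the mitochondrial Hspa9. No gene of the 38 changed by as much as 1.5-fold. The median log2 fold change was 0.06 for the cytosolic genes, 0.03 for the ER genes and -0.09 for the mitochondrial genes, against 0.0019 for all genes tested. These medians are small and moved with single libraries, the cytosolic one to 0.10 and the ER one to 0.04 without the first 0 h library, and without the first 6 h library the cytosolic one to 0.09 and the mitochondrial one to -0.04.

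Many of these mRNAs are abundant, and abundant genes were more often called lower. Among the 3779 genes whose average log2 CPM was 6 or more, 6.83% were called higher and 28.0% lower at 6 h, and their median log2 fold change was -0.05. Of the 38 genes 25 lay above that level. With library totals in place of TMM factors, which moved the median of all genes by 0.04 on the log2 scale, the calls over all genes were 2096 higher and 1430 lower. Under that scaling 13 of the 38 genes were called higher and 2 lower, with Hsp90b1, Dnajc3, Manf, Hspa1b and Stip1 joining.

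**Figure D2:**
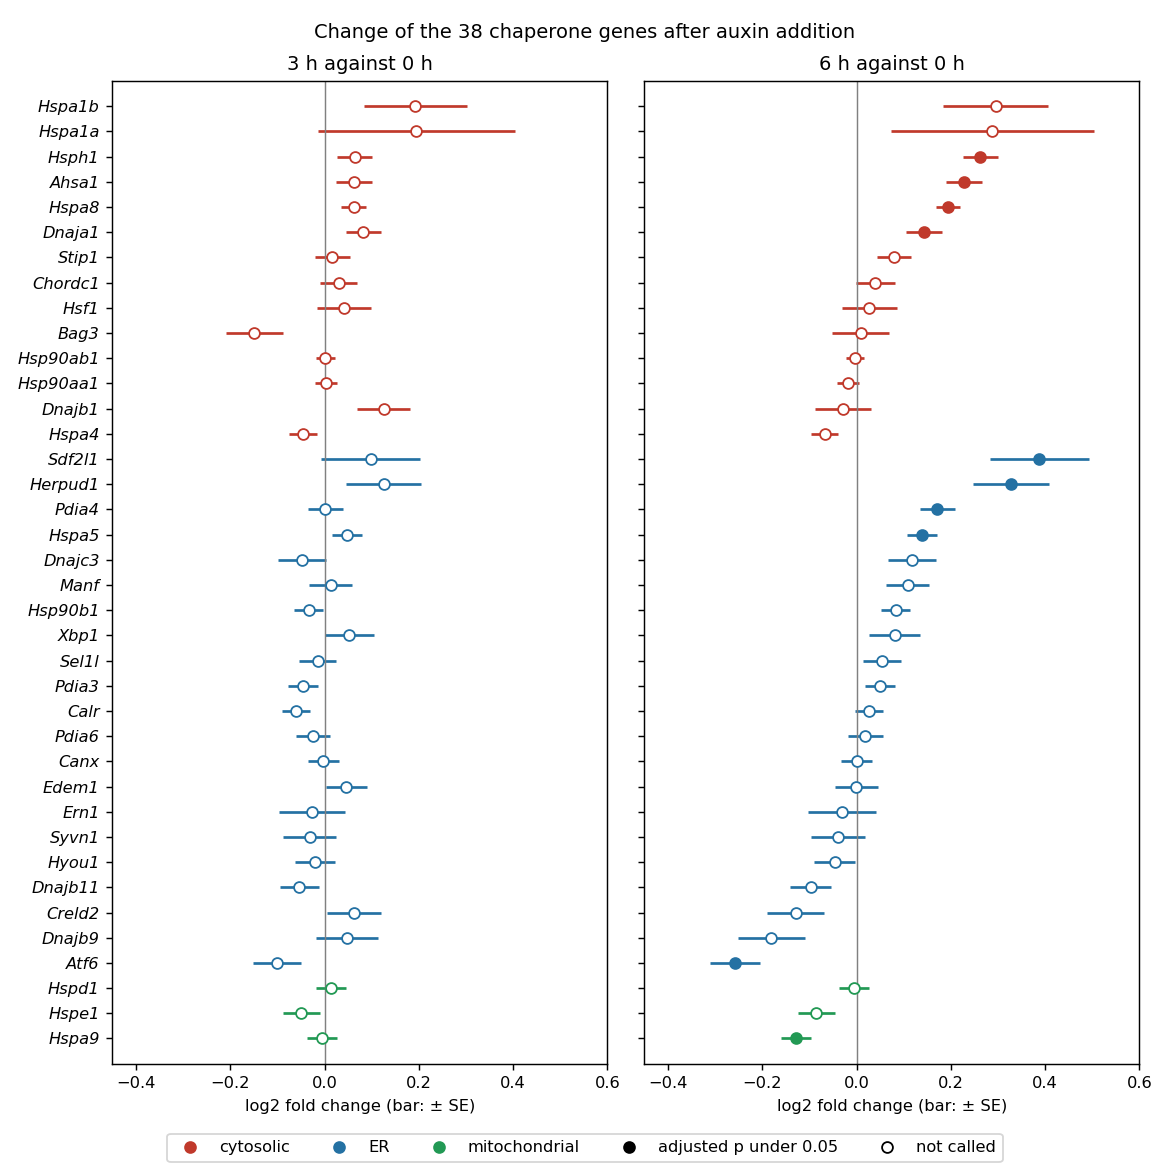
Log2 fold change of each of the 38 genes at 3 h and at 6 h against 0 h, with bars of ± 1 SE, coloured by class and filled where the edgeR adjusted p was under 0.05. No point is filled at 3 h, and at 6 h 10 points are filled, 8 above 0 and 2 below, while Hspa1b and Hspa1a, at 0.29 each with wider bars, are not.

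Among the cytosolic genes, 2 of the 5 HSP70 and HSP110 genes rose, 2 of the 6 cochaperone genes rose, and neither HSP90 gene was called. The background for these and the later counts by role is 9.92% of all genes called higher. The groups are too small to compare with it. Hspa8 (ENSMUSG00000015656, GRCm38 chromosome 9, 40800984 to 40810087), the constitutive HSP70 that folds nascent chains and uncoats clathrin, measured 1852 and 1894 CPM at 0 h, 1939 and 1970 after 3 h and 2112 and 2171 after 6 h. Both 6 h libraries were above both libraries of each earlier time. For this and the other called genes, such separation comes from the same values as the call and is no separate support. Uncalled genes showed it too, and its share over all genes was not counted. Its log2 fold change at 6 h was 0.19 ± 0.03 (adjusted p = 5.39e-05), a rise of 14.4%. Reads may be shared with its pseudogenes, since 39.4% of the 50-base stretches of its annotated transcripts also occur in transcripts of other genes.

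Hsph1 (ENSMUSG00000029657, chromosome 5, 149614287 to 149636376), the HSP110 protein that recharges HSP70 with ATP, carried the heat shock element match shown above. It measured 272 and 268 CPM at 0 h, 276 and 288 after 3 h and 319 and 327 after 6 h, and the 6 h libraries again did not overlap the others. The rise at 6 h was 19.9% (log2 fold change 0.26 ± 0.04, adjusted p = 9.33e-05). Hspa4, another member of the HSP110 family, gave 814 and 813 CPM at 0 h and 775 and 778 at 6 h, and this difference did not pass the test (-0.07 ± 0.03, adjusted p = 0.112).

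The cochaperones that rose serve HSP90 and HSP70. Ahsa1 (chromosome 12, 87266479 to 87273998), the activator of the HSP90 ATPase, measured 162 and 159 CPM at 0 h, 164 and 171 after 3 h and 186 and 190 after 6 h. Its 6 h libraries stood above the rest, with a rise of 17.1% (log2 fold change 0.23 ± 0.04, adjusted p = 4.56e-04). Dnaja1 (chromosome 4, 40722150 to 40737149), a J-domain partner of HSP70, measured 238 and 244 CPM at 0 h, 255 and 255 after 3 h and 261 and 271 after 6 h. It rose by 10.4% at 6 h (0.14 ± 0.04, adjusted p = 0.0112), with no overlap between the times. The Dnaja1 call was lost without the first 0 h library (adjusted p = 0.0629) and without the second 6 h library (adjusted p = 0.0515). Of the exon bases of Dnaja1 9.93% overlap the opposite-strand genes Gm6297 and Smu1, and the strand setting of the counting is not given in the sources used here. Of its 50-base stretches 20.55% also occur in transcripts of other genes.

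The HSP90 genes and the remaining cochaperones did not pass the test at 6 h. Hsp90ab1 measured 5535 and 5666 CPM at 0 h and 5519 and 5656 at 6 h, which overlap. Hsp90aa1 stood at 3134 and 3238 CPM at 0 h, against 3112 and 3183 CPM after 6 h (log2 fold change -0.02 ± 0.02, adjusted p = 0.647). Its reads may be shared too, since 47.5% of its 50-base stretches also occur in transcripts of other genes. Stip1, the adaptor between HSP70 and HSP90, gave 462 and 464 CPM at 0 h and 471 and 506 at 6 h (0.08 ± 0.04, adjusted p = 0.139). Chordc1, an HSP90 cochaperone with 3 overlapping heat shock element matches, had a log2 fold change of 0.04 (adjusted p = 0.524). Those of Bag3, Dnajb1 and Hsf1 lay between -0.03 and 0.03.

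The heat-inducible HSP70 genes Hspa1a and Hspa1b, which are usually near silent until heat shock, had few counts. Hspa1b was measured by 160 and 166 counts before the analog, 188 and 202 after 3 h and 159 and 186 after 6 h, or 8.28 and 7.69, 8.88 and 9.33, and 9.58 and 9.97 CPM. The CPM values at 6 h lay above those at 0 h, but the difference did not pass the test (log2 fold change 0.29 ± 0.11, adjusted p = 0.0686). Hspa1a had 33 and 43 counts before the analog, 43 and 48 after 3 h and 35 and 45 after 6 h (0.29 ± 0.21 at 6 h, adjusted p = 0.389). These neighbouring copies are nearly identical, with 66.3% of the 50-base stretches of Hspa1a and 62.3% of those of Hspa1b found in other genes, so reads cannot be assigned to either with certainty. Of the exon bases of Hspa1a 19.01% also overlap the opposite-strand gene Gm20481.

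In the ER, the BiP gene and 3 genes of other roles rose at 6 h. Hspa5 (ENSMUSG00000026864, chromosome 2, 34771970 to 34777547), the ER HSP70 that also holds the stress sensors inactive, measured 626 and 618 CPM at 0 h, 632 and 654 after 3 h and 694 and 676 after 6 h. Both 6 h libraries were the highest. The rise was 10.1% (log2 fold change 0.14 ± 0.03, adjusted p = 0.00557). Hsp90b1, the ER HSP90, whose promoter held a pair of ER stress elements, measured 748 and 743 CPM at 0 h and 785 and 794 at 6 h, a difference that did not pass the test against 0 h (0.08 ± 0.03, adjusted p = 0.0666). Of the exon bases of Hsp90b1 10.29% overlap the opposite-strand gene 1810014B01Rik, and 5.38% overlap the same-strand genes Gm15344 and Gm25745. Hyou1, the ER HSP110, gave 152 and 155 CPM at 0 h and 156 and 142 at 6 h (-0.05 ± 0.04, adjusted p = 0.484).

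Of the 4 BiP partners 1 rose, beside 9.92% of all genes called higher. Sdf2l1 (chromosome 16, 17130138 to 17132383), a BiP cofactor known as a strong target of the unfolded protein response, measured 12.4 and 10.8 CPM at 0 h, 12.2 and 12.5 after 3 h and 16.5 and 13.9 after 6 h. Its rise of 30.8% (log2 fold change 0.39 ± 0.10, adjusted p = 0.0136) was the largest of the 10 called genes, and its 6 h libraries differed more from each other than those of 0 or 3 h. DESeq2 did not call it (adjusted p = 0.0780), nor did the edgeR fits without the second 0 h library (adjusted p = 0.118) or without the first 6 h library (adjusted p = 0.140). Dnajb9, a BiP J-domain partner that represses IRE1, gave 23.3 and 23.6 CPM at 0 h and 20.7 and 20.7 at 6 h (-0.18 ± 0.07, adjusted p = 0.0805). Dnajc3, which inhibits PERK, gave 56.6 and 59.2 CPM at 0 h and 62.8 and 62.9 at 6 h (0.12 ± 0.05, adjusted p = 0.113). Dnajb11, a J-domain partner in the ER lumen, had a log2 fold change of -0.10 ± 0.04 (adjusted p = 0.113).

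The lectin chaperones and disulfide isomerases included 1 gene that rose. Pdia4 (chromosome 6, 47796141 to 47813430), a disulfide isomerase of the BiP complex, measured 185 and 185 CPM at 0 h, 187 and 184 after 3 h and 211 and 206 after 6 h. The 0 and 3 h libraries lay together and both 6 h libraries lay above them, with a rise of 12.6% (log2 fold change 0.17 ± 0.04, adjusted p = 0.00292). Calr and Canx, which hold glycoproteins through their sugars, had log2 fold changes of 0.03 (adjusted p = 0.586) and under 0.01 in size. Pdia3, the isomerase that works with them, had 0.05 ± 0.03 (adjusted p = 0.290), and Pdia6 had 0.02 ± 0.04 (adjusted p = 0.760).

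Herpud1 (chromosome 8, 94386438 to 94395377), a membrane protein that assembles the ER-associated degradation complex, carried the ERSE-II match shown above. It measured 15.0 and 15.7 CPM at 0 h, 16.2 and 17.4 after 3 h and 19.6 and 19.1 after 6 h, and the 3 times did not overlap. At 6 h it had risen by 25.5% (log2 fold change 0.33 ± 0.08, adjusted p = 0.00734), although not by DESeq2 (adjusted p = 0.0773). Its partners in the degradation machinery, Sel1l, Syvn1 and Edem1, had log2 fold changes between -0.04 and 0.05 and were not called. The secreted ER stress proteins Manf (0.11 ± 0.05, adjusted p = 0.100) and Creld2 (-0.13 ± 0.06, adjusted p = 0.144) were not called against 0 h. Of the exon bases of Manf 8.85% overlap opposite-strand genes.

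Of the sensors, Atf6 (ENSMUSG00000026663, chromosome 1, 170704674 to 170867771) fell. Its product is released from the ER under stress and cleaved into a transcription factor for the chaperone genes. It measured 64.6 and 60.1 CPM at 0 h, 56.9 and 59.1 after 3 h and 50.7 and 53.3 after 6 h, so the times did not overlap and the lowest values were those at 6 h. At 6 h it stood at 0.836 of the 0 h level (log2 fold change -0.26 ± 0.05, adjusted p = 0.00219). Ern1 had -0.03 ± 0.07 (adjusted p = 0.805). Xbp1, whose mRNA IRE1 splices, had 0.08 ± 0.05 (adjusted p = 0.309), and counts per gene do not separate its spliced form.

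Set against the promoter matches, 1 of the 8 genes with the longer ER stress element, Hspa5, was called higher at 6 h against 0 h, beside 9.92% of all genes tested. At 6 h against 3 h, Hsp90b1 and Dnajc3 of these 8 were called higher and Creld2 lower, with values given below. Over all genes 9.71% were called higher and 11.7% lower in that comparison. The other ER genes that rose at 6 h against 0 h, Sdf2l1, Pdia4 and Herpud1, held no match to the longer element, although each had its CCACG end. That end is present in 35.5% of all promoters and in 16 of the 18 ER genes with an entry (88.9%), called or not. Of the 4 genes with a heat shock element match, Hsph1 rose and Chordc1, Hspd1 and Hspe1 were not called. Among the other cytosolic genes that rose, Ahsa1 and Dnaja1 held no match and Hspa8 had no promoter entry. A match to these letters is a description of the sequence and not a measured binding site.

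Among the mitochondrial chaperones Hspa9, the HSP70 that imports and folds matrix proteins, fell. It measured 895 and 923 CPM before the analog, 900 and 911 after 3 h and 813 and 850 after 6 h, with both 6 h libraries below the other 4. The log2 fold change at 6 h was -0.13 ± 0.03 (adjusted p = 0.00814), and the call was lost without the second 0 h library (adjusted p = 0.0926) and without the first 6 h library (adjusted p = 0.0657). Hspd1 gave 1030 and 991 CPM at 0 h and 994 and 1020 at 6 h, which overlap (-0.01 ± 0.03, adjusted p = 0.927). Hspe1, its HSP10 partner, gave 218 and 223 CPM at 0 h and 202 and 213 at 6 h (-0.09 ± 0.04, adjusted p = 0.133). The summed level of the 3 genes was 2143 and 2137 CPM at 0 h and 2010 and 2082 at 6 h. Reads of Hspd1 and Hspe1 may be shared, since 42.1% and 22.8% of their 50-base stretches also occur in transcripts of other genes.

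**Figure D3:**
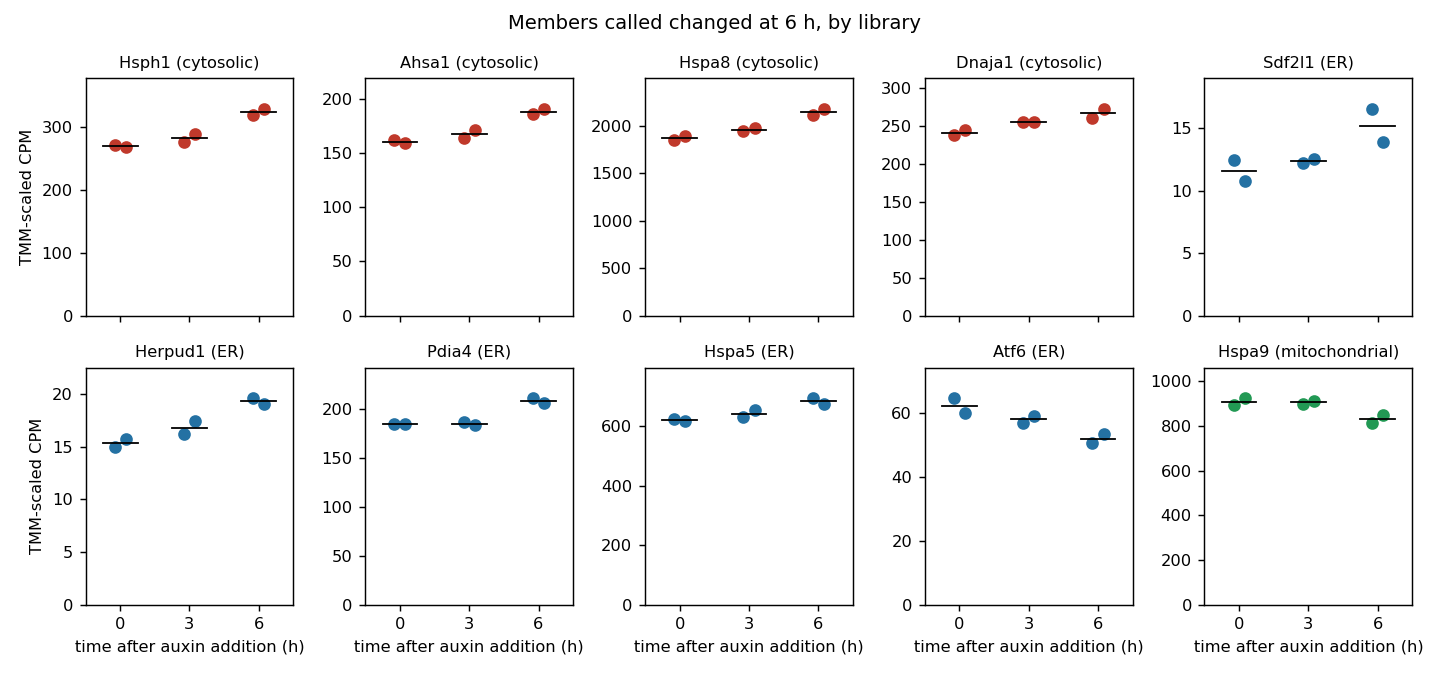
TMM-scaled CPM in each library at 0, 3 and 6 h for the 10 genes called at 6 h against 0 h, with points for libraries and lines for the mean of 2, each axis starting at 0. Both 6 h points lie above both 0 h points for the 8 genes called higher and below them for Atf6 and Hspa9. These genes were picked by the same values, so the separation is no separate support. Uncalled members such as Calr (edgeR adjusted p = 0.586) and Xbp1 (edgeR adjusted p = 0.309) were separated in this way too.

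Of the 30 feeder markers 2 were called higher and 2 lower at 6 h, and their median was -0.02 on the log2 scale. When their mean was added to the model as a covariate, all 10 chaperone calls at 6 h were kept, and Hsp90b1 and Hspa1b were added as higher and Hspa4 and Hspe1 as lower.

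The interval from 3 to 6 h was also compared directly. Over all genes 21.4% were called, 9.71% higher and 11.7% lower, and of the 38 genes 7 were called higher and 4 lower. Hspa8 (log2 fold change 0.13 ± 0.03, adjusted p = 0.00183), Hsph1 (0.20 ± 0.04, adjusted p = 0.00123), Ahsa1 (0.17 ± 0.04, adjusted p = 0.00580) and Pdia4 (0.17 ± 0.04, adjusted p = 0.00372) rose in this interval too. Hsp90b1 rose from 715 and 742 CPM at 3 h to 785 and 794 at 6 h (0.12 ± 0.03, adjusted p = 0.0137). Pdia3 rose from 596 and 605 to 647 and 636 CPM (0.10 ± 0.03, adjusted p = 0.0402), and Dnajc3 from 58.2 and 54.0 to 62.8 and 62.9 CPM (0.17 ± 0.05, adjusted p = 0.0296).

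Those that fell from 3 to 6 h were Dnajb9, Creld2, Atf6 and Hspa9. Dnajb9 went from 23.3 and 25.1 to 20.7 and 20.7 CPM (log2 fold change -0.23 ± 0.07, adjusted p = 0.0289). Creld2 went from 51.5 and 46.4 to 43.7 and 42.1 CPM (-0.19 ± 0.06, adjusted p = 0.0317). For Atf6 the value was -0.16 ± 0.05 (adjusted p = 0.0466) and for Hspa9 -0.12 ± 0.03 (adjusted p = 0.0118). Feeder markers moved in this interval, with 10 of 30 called higher, none lower and a median of 0.12 on the log2 scale. With the feeder covariate 6 of the 11 calls were kept, and those of Dnajc3, Pdia3, Dnajb9, Atf6 and Hspa9 were lost. DESeq2 also kept 6 of the 11, losing Atf6, Creld2, Dnajb9, Dnajc3 and Pdia3 (adjusted p = 0.106 to 0.207). With library totals the 7 that rose were kept and none of the 4 that fell was called. Leaving out the first or the second 3 h library kept 4 and 6 of the 11 calls, and leaving out the first or the second 6 h library kept 5 and 7. Those of Hspa8, Hsph1 and Pdia4 were kept in each of these fits.

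Other genes of the same pathways, from lists that hold none of the 38, were examined at 6 h against 0 h in the same fit. The background for each list is that 22.2% of all genes tested were called, 9.92% higher and 12.3% lower. Of 31 further genes of the cytosolic HSP70 and HSP90 systems, 1 was called higher and 1 lower (median 0.03 on the log2 scale). The J-domain gene Dnaja4, a known heat shock responder, stood at 5.39 and 4.86 CPM at 0 h and 7.11 and 6.43 at 6 h (0.40 ± 0.14, adjusted p = 0.0482), and another J-domain gene, Dnajb4, was lower (-0.26 ± 0.07, adjusted p = 0.0139). Both calls were lost with DESeq2 (adjusted p = 0.256 and 0.0533). The Dnaja4 call was also lost when any 1 library was left out (adjusted p = 0.0547 to 0.228), and that of Dnajb4 without the first 0 h library (adjusted p = 0.198) or the second 6 h library (adjusted p = 0.131). Of the 14 subunits of the cytosolic chaperonin TRiC and of prefoldin, which fold actin and tubulin, none was called higher and 2 lower. These were Pfdn1 (-0.15 ± 0.05, adjusted p = 0.0317) and Tcp1 (-0.09 ± 0.03, adjusted p = 0.0416), both lost when any 1 library was left out. Fold changes were below 0 for 13 of the 14, with a median of -0.05, and the median of all abundant genes was also -0.05.

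Regulators of the unfolded protein response changed in both directions. Of 16 tested, 4 rose and 5 fell, beside 9.92% called higher and 12.3% called lower over all genes. The median of the 16 was -0.0089 on the log2 scale. Chac1, a glutathione-degrading enzyme, measured 2.85 and 3.52 CPM before the analog, 4.39 and 3.51 after 3 h and 6.63 and 7.61 after 6 h (1.16 ± 0.17 at 6 h, adjusted p = 1.09e-04). Both 6 h libraries were above the other 4. Ppp1r15b, a phosphatase subunit that reverses eIF2alpha phosphorylation, fell from 185 and 184 to 159 and 158 CPM (-0.22 ± 0.04, adjusted p = 4.35e-04). Mbtps1, the protease that cleaves ATF6 first, fell as well (-0.20 ± 0.04, adjusted p = 0.00117).

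Named after their values were seen, Trib3 (log2 fold change 0.54 ± 0.11, adjusted p = 0.00174) and Ddit3, which encodes CHOP (0.36 ± 0.11, adjusted p = 0.0216), were higher at 6 h. The Ddit3 call was lost with DESeq2 (adjusted p = 0.144), without the second 0 h library (adjusted p = 0.0763) and without the first 6 h library (adjusted p = 0.109). Atf4, named in the same way, fell from 225 and 225 CPM at 0 h to 201 and 199 at 6 h (-0.17 ± 0.04, adjusted p = 0.00299). Also named after their values were seen, 2 genes of the same list had fold changes below 0. Ppp1r15a was called lower (-0.24 ± 0.06, adjusted p = 0.00799), but not with DESeq2 (adjusted p = 0.0829). Atf3 was not called (-0.43 ± 0.19, adjusted p = 0.120). The sensor genes outside the 38 were not called, with adjusted p = 0.214 for Eif2ak3, which encodes PERK, and adjusted p = 0.646 for Atf6b.

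Among 34 further genes of ER folding and glycan processing, 2 rose and 1 fell (median -0.03 on the log2 scale). Mogs, the glucosidase that trims the first glucose of N-glycans, rose from 39.8 and 37.0 CPM to 50.9 and 49.8 (0.39 ± 0.06, adjusted p = 9.13e-05). The other called genes were Tmx3, a membrane disulfide isomerase, which was lower (-0.18 ± 0.04, adjusted p = 0.00535), and Dnajc10, an ER reductase with a J domain, which was higher (0.13 ± 0.04, adjusted p = 0.0420) but not with DESeq2 (adjusted p = 0.188) or in 5 of the 6 fits without 1 library, the exception being that without the second 6 h library. Of 18 further genes of ER-associated degradation 2 were called higher and 1 lower. Derl3 was measured by 20 and 35 counts before the analog, 43 and 35 after 3 h and 51 and 50 after 6 h, or 1.04 and 1.62, 2.03 and 1.62, and 3.07 and 2.68 CPM (1.09 ± 0.24 at 6 h, adjusted p = 0.00376). Derl1, its relative in the retrotranslocation channel, was lower (-0.17 ± 0.05, adjusted p = 0.0223), a result lost with DESeq2 (adjusted p = 0.124). The Derl1 call was also lost without the first 0 h library (adjusted p = 0.182) or the second 6 h library (adjusted p = 0.216).

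Of 19 further mitochondrial chaperones and proteases, 1 rose and 2 fell (median -0.0014 on the log2 scale). Grpel2, a nucleotide exchange factor of the mitochondrial HSP70, fell from 44.4 and 45.0 CPM at 0 h to 36.7 and 37.9 at 6 h (-0.26 ± 0.05, adjusted p = 0.00229). Oma1, the stress-activated protease of the inner membrane, rose from 11.4 and 11.02 to 14.8 and 15.4 CPM (0.43 ± 0.09, adjusted p = 0.00292). Lonp1, the matrix protease, was lower (-0.11 ± 0.04, adjusted p = 0.0383), a call lost when any 1 library was left out. In none of these 6 lists was a gene called at 3 h.

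**Figure D4:**
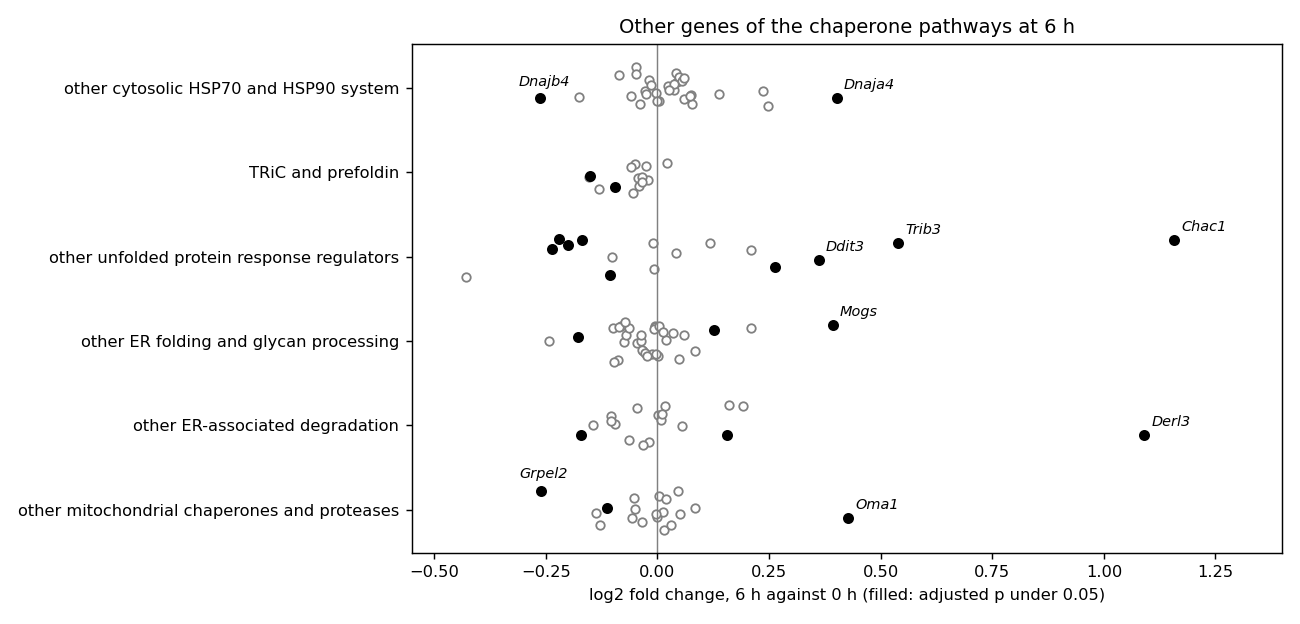
Log2 fold change at 6 h against 0 h of the genes in 6 pathway lists that hold none of the 38 chaperone genes, 1 point per gene, filled where the edgeR adjusted p was under 0.05. Called genes lie on both sides of 0 in 5 of the 6 lists, and Chac1 at 1.16 and Derl3 at 1.09 lie farthest out.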

How the data were processed

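Stranded, single-end polyA RNA-seq of 6 libraries was used. The deposited values are raw counts of reads per Ensembl gene, made by the authors with fastp 0.22.0, HISAT2 2.2.1 and featureCounts 2.0.3 on GRCm38 (mm10), per the submitters' processing notes. For the annotation release and for multi-mapping reads nothing is given in the sources used here. Computed here with R 4.3.3 were gene names and exon lengths from GENCODE M21 (55227 of 55487 IDs named), a filterByExpr filter (minimum 10 counts), TMM factors and edgeR 4.0.16 quasi-likelihood tests in 1 fit with 3 group means and no covariate. Alternatives were RLE factors, library totals, no filter, DESeq2 1.42.0, limma 3.58.1 voom, a replicate block, the mean feeder-marker level as a covariate, only the 4 libraries compared, and each library left out in turn. The 38 genes and all lists were chosen with earlier results of these data known. Named were all called members, the most abundant others and, per further list, up to 3 called genes with the smallest adjusted p. Genes outside this are marked, and 1 gene that the rule named is not reported here.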

Additional observations from a re-analysis of the deposited data

How the results depend on the processing

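Under 14 alternatives, the calls of Hspa8, Hsph1, Ahsa1, Hspa5, Pdia4 and Atf6 at 6 h against 0 h held in all 14, and no member was called at 3 h in any. Of 140 repeats of the 10 calls, 132 kept direction and call. With library totals 13 members were higher at 6 h against 0 h, the median log2 fold changes were 0.10 for the cytosolic, 0.06 for the ER and -0.05 for the mitochondrial genes, and 13 were higher and 0 lower at 6 h against 3 h. Over all genes, library totals gave 2044 higher and 1287 lower at 6 h against 3 h. With the feeder covariate 4 were lower at 6 h against 0 h and 1 at 6 h against 3 h, where DESeq2 also gave 1 lower. Over all genes, the feeder covariate gave 2500 lower at 6 h against 0 h, where the main fit gave 1941. At 6 h against 3 h it gave 1238 lower and DESeq2 948, where the main fit gave 1846. Leaving out each library gave 7 to 8 higher and 1 to 2 lower at 6 h against 0 h, 4 to 8 higher and 0 to 5 lower at 6 h against 3 h, and medians of 0.059 to 0.096 for the cytosolic, 0.027 to 0.043 for the ER and -0.12 to -0.04 for the mitochondrial genes. Where an arm kept 1 library, that library was assumed to vary like the others. The causes were not tested.

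Over all genes tested, the deviations of same-numbered libraries from their group means were nearly uncorrelated (r = 0.04, 0.04 and -0.02). This measure takes in genes with few counts and cannot exclude a pairing. The replicate block gave 9 higher and 2 lower at 6 h against 0 h and 11 higher and 5 lower at 6 h against 3 h. In the latter comparison it called 4142 of all genes, against 3375 without the block. At 6 h against 0 h it called 4147 of all genes, against 3503 without the block. Over all genes, counts differed by over 1.5 times with DESeq2 (1701 at 6 h against 0 h, 1449 against 3 h, 12 at 3 h) and with the feeder covariate (2188 at 6 h against 3 h, 44 at 3 h). At 3 h they were also 234 without the filter, 262 with the replicate block, 82 with 4 libraries and 4 to 260 with 1 library left out, and at 6 h against 3 h leaving out 1 library gave 1531 to 3683. With 2 libraries a group and few counts for Hspa1a, small changes were not resolved.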
